A study of Mus musculus with 14 samples.

Results

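The genes Foxa1, Foxa2, Foxa3, Mef2a, Mef2c and Mef2d were followed through chondrogenic differentiation of ATDC5 cells, 6 of the 21883 protein-coding genes of the reference table. Every peak that overlapped the span of one of these genes, or the 5 kb on either side, by at least 1 bp was taken. There were 107 such peaks among the 170889 peaks of the 12 lists. All positions are on the mouse build GRCm38, counted from 1. ATDC5 is a mouse line derived from the teratocarcinoma AT805 that forms cartilage-like nodules. Day 0 cells were undifferentiated, and day 3 and day 10 cells had been kept in dense droplet cultures with β-glycerophosphate and an ascorbate. Chromatin of each day was precipitated with an antibody against H3K4me3 or against RUNX2, in 2 libraries per antibody and day. All libraries came from this 1 line, the labels name no altered gene, and whether the 2 libraries of a day are separate cultures is not stated.

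FOXA proteins are forkhead pioneer factors, able to bind DNA wrapped in nucleosomes. They are best known from endoderm, liver and lung, and FOXA2 and FOXA3 also drive the late programme of cartilage, in which chondrocytes enlarge and switch on Col10a1. MEF2 proteins are MADS-box factors of muscle, heart and neurons that bind an AT-rich motif. In growth plate chondrocytes MEF2C and MEF2D promote hypertrophy, and the deacetylase HDAC4 holds them back. RUNX2, a runt-domain factor, is required for the same transition. H3K4me3 marks the histones of promoters that are active or poised, so its peaks typically lie around transcript starts rather than over whole genes.

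Each H3K4me3 list had between 13765 peaks (replicate 1 of day 0) and 29022 peaks (replicate 2 of day 10). For RUNX2 there were 19319 and 16859 peaks on day 3, but 97 to 108 per list on days 0 and 10. Sequencing depth is unknown, so where no peak was called the mark may still have been present below the calling limit of that library. The 2 RUNX2 lists of day 3 stood apart in their summits, the single bases of highest signal. Of the 19319 summits of replicate 1, 46.5% lay on exactly the same base as a summit of replicate 2, whereas between any pair of H3K4me3 lists 0.115 to 0.497% did. How far the 2 RUNX2 libraries of day 3 are independent was not tested. The count of the 6 genes with RUNX2, the count with both marks, the overlap of RUNX2 with H3K4me3 and the list counts are therefore also given with each library alone.

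Markers of chondrocytes and of other cell types were followed in the same windows. Chondrocyte markers had an H3K4me3 peak in both libraries at 6 of 14 genes on day 0, 12 on day 3 and 12 on day 10. This count and those of the other markers stand beside 54.8, 64.3 and 59.4% of all protein-coding genes on days 0, 3 and 10. Their summed covered length was 13383 and 17895 bp on day 0, 75283 and 49147 bp on day 3, and 46218 and 62420 bp on day 10. Endoderm, gut and liver markers had one at 2, 5 and 4 of 14 genes on days 0, 3 and 10, over 3824 to 9167 bp. Hnf4a, Alb and Afp had none in any list, whereas Gata4 and Cldn6 had a peak in every H3K4me3 list. Muscle markers had one at 2, 2 and 1 of 12 genes, over 1004 to 5107 bp. Myod1, Myog and Myf5 had none in any list, whereas Mylpf had a peak in every H3K4me3 list. Neuron markers had one at 2, 5 and 2 of 8 genes, over 1633 to 7575 bp. The part of these cell types in the FOXA and MEF2 peaks was not tested.

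Sequences are shown for starts at which the peaks or the letters themselves set a gene apart. They are from RefSeq, on GRCm38.p6, and run from 250 bases before a listed transcript start to 30 bases into the transcript, 280 bases in all, on the strand of the gene. The Foxa1 start (chr12:57546082-57546361, minus strand) was the only one of the 10 listed starts of the 6 genes with a FOXA motif, which is in capitals. It reads TGTTTAC on the opposite strand. The Mef2a start (chr7:67372829-67373108, minus strand) was the only one with a MEF2 motif, in capitals, which spans the first base of the transcript. At the third Foxa2 start (chr2:148045435-148045714, minus strand) the capitals mark the RUNX2 summits of day 3, bases 165 and 166.
Foxa1: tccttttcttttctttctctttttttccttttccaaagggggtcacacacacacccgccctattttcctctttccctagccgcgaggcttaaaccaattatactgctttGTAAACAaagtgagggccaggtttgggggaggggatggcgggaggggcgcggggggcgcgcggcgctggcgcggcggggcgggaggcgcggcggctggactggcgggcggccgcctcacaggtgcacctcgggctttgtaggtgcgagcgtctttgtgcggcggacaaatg
Mef2a: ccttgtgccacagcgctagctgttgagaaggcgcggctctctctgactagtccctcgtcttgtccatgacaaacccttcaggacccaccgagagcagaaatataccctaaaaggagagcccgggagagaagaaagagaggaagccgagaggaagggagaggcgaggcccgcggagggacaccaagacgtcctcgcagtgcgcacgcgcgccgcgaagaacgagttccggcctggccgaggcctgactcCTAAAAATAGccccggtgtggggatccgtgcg
Foxa2, start 3: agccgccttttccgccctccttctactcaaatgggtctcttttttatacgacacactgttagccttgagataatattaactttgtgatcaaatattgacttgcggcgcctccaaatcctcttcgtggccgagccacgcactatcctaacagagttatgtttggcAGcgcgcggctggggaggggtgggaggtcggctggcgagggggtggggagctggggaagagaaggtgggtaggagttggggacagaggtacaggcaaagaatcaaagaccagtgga

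Mef2c has 3 listed starts, and the first and second are shown because H3K4me3 was called at the second only. Capitals mark CpG dinucleotides, of which the first printed sequence (chr13:83503784-83504063, plus strand) holds 1 and the second (chr13:83523406-83523685, plus strand) holds 9.
Mef2c, start 1: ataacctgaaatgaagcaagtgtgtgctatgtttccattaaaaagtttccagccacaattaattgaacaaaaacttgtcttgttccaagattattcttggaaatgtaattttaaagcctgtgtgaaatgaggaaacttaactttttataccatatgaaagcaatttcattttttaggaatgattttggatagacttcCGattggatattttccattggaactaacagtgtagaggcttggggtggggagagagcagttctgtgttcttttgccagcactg
Mef2c, start 2: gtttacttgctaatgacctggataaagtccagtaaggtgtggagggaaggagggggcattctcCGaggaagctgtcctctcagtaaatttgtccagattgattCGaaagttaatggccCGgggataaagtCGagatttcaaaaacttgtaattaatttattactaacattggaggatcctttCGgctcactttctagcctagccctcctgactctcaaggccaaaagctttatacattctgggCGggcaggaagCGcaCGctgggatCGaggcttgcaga

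The letters were searched on both strands in the 300 bases around each of the 10 starts (250 before, 50 after), beside all 32851 listed promoters of that length. The RUNX motif, TGTGGT or TGCGGT, was in 0 of the 10, while 22.4% of all promoters hold it. The FOXA motif, TGTTTAC or TATTTAC, was in 1 of the 10 (Foxa1), against 6.54% of all promoters. The MEF2 consensus, CTA, then 4 letters of A or T, then TAA or TAG, was in 1 of the 10 (Mef2a), against 1.86%. The Mef2a site, CTAAAAATAG, matches on both strands. These are matches of letters, and a window without one says nothing of the factor. CpG dinucleotides numbered 26 at Foxa1, 22 at Foxa3, 27 at Mef2a and 24 at Mef2d. The starts of Foxa2 held 12, 23 and 13, and those of Mef2c held 1, 10 and 4. The median of all promoters was 7.

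H3K4me3 was called in the windows of nearly all 6 genes from the outset. Over the 300 promoter bases, both day 0 libraries had a peak at Mef2a and Mef2d only, beside 30.7% of all listed starts. The day 0 peaks counted for Foxa3 had their summits nearer to the start of the neighbouring gene Sympk. A peak in both libraries was called at 5 of 6 genes on day 0 (background 54.8% of all protein-coding genes), at 6 of 6 on day 3 (64.3%) and at 6 of 6 on day 10 (59.4%). The exception was Foxa2 on day 0, which had no peak in replicate 1. The other 5 genes had a peak in all 6 lists, as did 54.5% of all genes. A gene was counted as gaining a peak when both later libraries had one and neither earlier library did. By that rule 0 of 6 genes gained a peak on day 3 relative to day 0 (3.23% of all genes), 0 on day 10 relative to day 3 (0.0457%) and 0 on day 10 relative to day 0 (1.11%). None lost one in these comparisons either, against 0.00914, 0.576 and 0.00914% of all genes. With 1 kb either side of the gene ends in place of the whole span, Foxa2 counted as a gain on day 3 relative to day 0, and it did so too without replicate 2 of day 0.

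RUNX2 peaks were found at all 6 genes on day 3 and at none on the other days. The count was 0 of 6 on day 0 (background 0.0274%), 6 of 6 on day 3 (61.1%) and 0 of 6 on day 10 (0.0183%). With replicate 1 or replicate 2 of day 3 alone it was again 6 of 6, where 62.4 and 61.3% of all genes had a peak. The gain on day 3 relative to day 0 and the loss on day 10 relative to day 3, 6 of 6 genes each, stand beside 61% and 61% of all genes. All 6 also carried both marks on day 3, as did 60.7% of all genes, and with either RUNX2 library alone it was again 6. These counts move with the lengths of the RUNX2 lists, whose part was not tested. With 1 kb either side of the gene ends, which leaves out starts inside a span, 3 of 6 genes (Foxa2, Foxa3 and Mef2d) had RUNX2 on day 3, also with either library alone. The share of all genes was not counted for that setting.

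**Figure D1:**
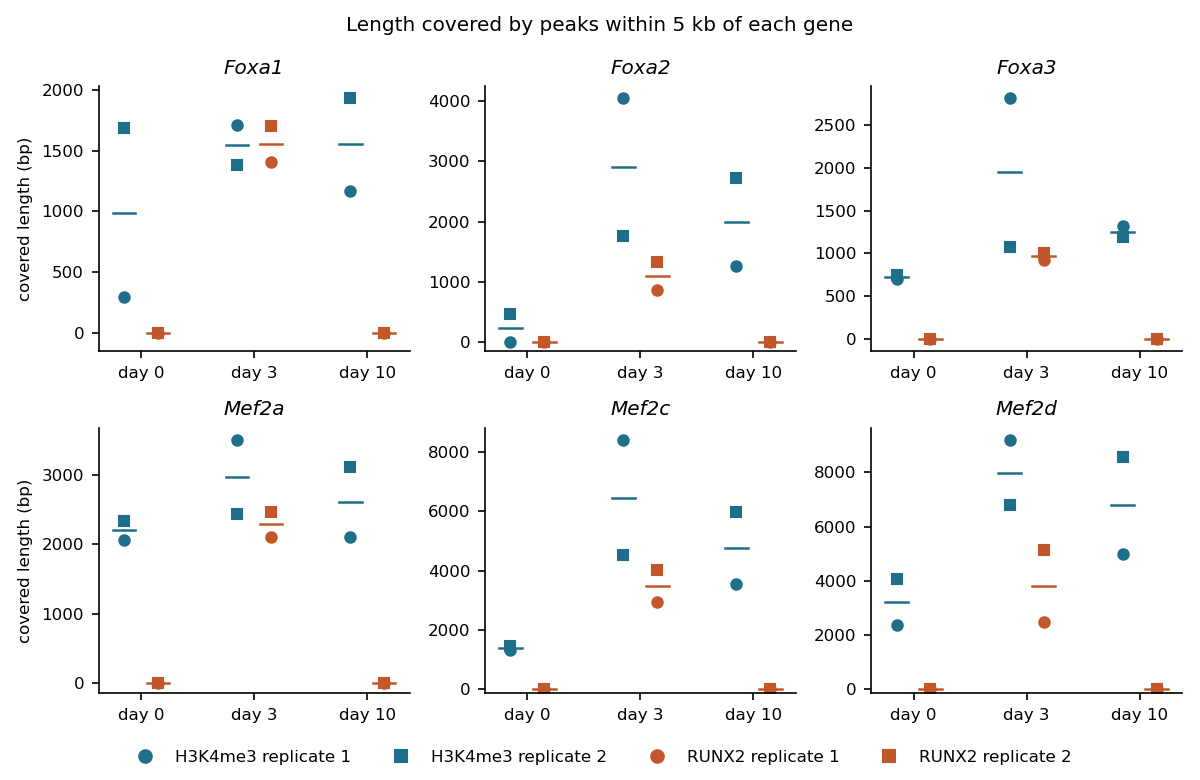
Length covered by peaks, in bp, in the window of each gene (span and 5 kb on either side) for every library. Circles are replicate 1, squares replicate 2 and short lines their mean. RUNX2 is at 0 on days 0 and 10 at all 6 genes, and the H3K4me3 values of day 3 lie above those of day 0 at 5 of 6.

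The length covered by peaks was the measure compared between days. For Mef2c, the MEF2 gene most closely tied to hypertrophy, H3K4me3 covered 1320 and 1444 bp on day 0, 8397 and 4528 bp on day 3, and 3538 and 5975 bp on day 10. Both later days lay above both day 0 libraries, and days 3 and 10 overlapped. The mean was 6462.5 ± 2736 bp on day 3 and 1382 ± 87.7 bp on day 0 (SD, n = 2 each), a ratio of 4.68. This was the largest ratio of the 5 genes with a peak in all 4 libraries, beside a median of 1.46 over the 11981 protein-coding genes of that kind. Without replicate 1 of day 3, the longer value, the difference between day 3 and day 0 was 3146 bp in place of 5080.5 bp.

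Mef2d, which encodes the other MEF2 protein active in cartilage, had the longest cover. It was 2368 and 4056 bp on day 0, 9177 and 6807 bp on day 3, and 4972 and 8585 bp on day 10. The days 3 and 10 values were above both values of day 0. The ratio of the means was 2.49 for day 3 over day 0 and 2.11 for day 10 over day 0, where the median over the 11931 genes with a peak in all 4 libraries was 1.21. The separation of day 10 from day 0 at Mef2d was lost at a −log10 q of at least 5 (difference 2097.5 bp), among equal numbers of top peaks (2348.5 bp), within 1 kb of the gene ends (528.5 bp) and within 1 kb of the listed starts (373.5 bp), against 3566.5 bp in the whole window. Without replicate 2 of day 10 the difference was 1760 bp. Within 1 kb of the listed starts day 3 overlapped day 0 as well (498.5 bp). Mef2a, expressed in many tissues, had the smallest ratio. Its H3K4me3 cover was 2064 and 2327 bp on day 0, 3496 and 2433 bp on day 3, and 2108 and 3114 bp on day 10. Day 3 lay above day 0 by a ratio of 1.35, below the median of 1.46 over the 11981 genes with a peak in all 4 libraries, and day 10 overlapped both other days. The difference between day 3 and day 0 was 769 bp, and 237.5 bp without replicate 1 of day 3.

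Among the FOXA genes, Foxa2 had the least cover on day 0. It was 0 and 465 bp on day 0, 4049 and 1765 bp on day 3, and 1270 and 2719 bp on day 10. Both later days lay above day 0, and no ratio is given against a library without a peak. The difference between day 3 and day 0 was 2674.5 bp, and 1532.5 bp without replicate 1 of day 3. Foxa1, a paralogue with overlapping roles in endoderm and in gland epithelia, had 295 and 1684 bp on day 0, 1711 and 1378 bp on day 3, and 1172 and 1934 bp on day 10. All 3 days overlapped, and the low value of day 0 was that of the shortest H3K4me3 list. Without that library the difference between day 3 and day 0 turned to -139.5 bp. Foxa3, the liver paralogue that acts with FOXA2 in cartilage, had 699 and 743 bp on day 0, 2820 and 1075 bp on day 3, and 1322 and 1188 bp on day 10. Both later days were above day 0, with ratios of 2.70 for day 3 and 1.74 for day 10, though these peaks lay at the start of a neighbouring gene, described below. Without replicate 1 of day 3 the difference between day 3 and day 0 was 354 bp in place of 1226.5 bp. In the bare span it was 0 bp, and with 1 kb or 10 kb added to the span the 2 days overlapped (569.5 and 1360.5 bp). Day 10 and day 0 overlapped in the bare span (172 bp) and within 1 kb of the listed start (199 bp).

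Counted over the genes, cover in both libraries of day 3 exceeded both of day 0 at 5 of 6 genes, where 52.6% of all genes did the same, and it was lower at 0 of 6 (0.0503%). On day 10 it exceeded day 0 at 4 of 6 (Foxa2, Foxa3, Mef2c and Mef2d, of which Mef2d and Foxa3 overlapped under the settings given above), against 14.4% of all genes, and was lower at 0 of 6 (0.206%). Between day 10 and day 3, 0 of 6 genes separated, while 13.6% of all genes were lower and 0.306% higher on day 10. Two-sided exact permutation tests of 2 against 2 libraries cannot give a p below 0.33. That value was reached by each gene without overlap, and its Benjamini-Hochberg adjusted value over the 18 comparisons was 0.667, so none passed 0.05. The H3K4me3 lists covered 14.5 and 21.3 Mb of the genome on day 0, 35.7 and 27.9 Mb on day 3, and 17.3 and 31.9 Mb on day 10. Among equal numbers of top H3K4me3 peaks from each list, day 3 minus day 0 was 3186.5 bp at Mef2c, 3844.5 bp at Mef2d, 769 bp at Mef2a, 1890.5 bp at Foxa2 and 714.5 bp at Foxa3, and these 5 genes again did not overlap. Foxa1 overlapped, with 667.5 bp. Between day 10 and day 0 the separation held there at Mef2c (2816.5 bp), Foxa2 (1709.5 bp) and Foxa3 (246 bp), and not at Mef2d. How many of all genes separated among equal numbers of top peaks was not counted.

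RUNX2 covered 2948 and 4021 bp at Mef2c on day 3, 2484 and 5122 bp at Mef2d and 2103 and 2467 bp at Mef2a. At the FOXA genes it covered 1405 and 1702 bp (Foxa1), 869 and 1340 bp (Foxa2), and 920 and 1007 bp (Foxa3). Each of the 3 MEF2 genes thus had more RUNX2 cover than any FOXA gene in both libraries, but their spans are also longer, at 145294, 163063 and 30151 bp for Mef2a, Mef2c and Mef2d and 7402, 4093 and 10257 bp for Foxa1, Foxa2 and Foxa3. Among all genes with a RUNX2 peak, Foxa2 and Foxa3 were low in cover, at percentiles between 11.95 and 26.6. Mef2c stood at 92.6 and 93.6.

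**Figure D2:**
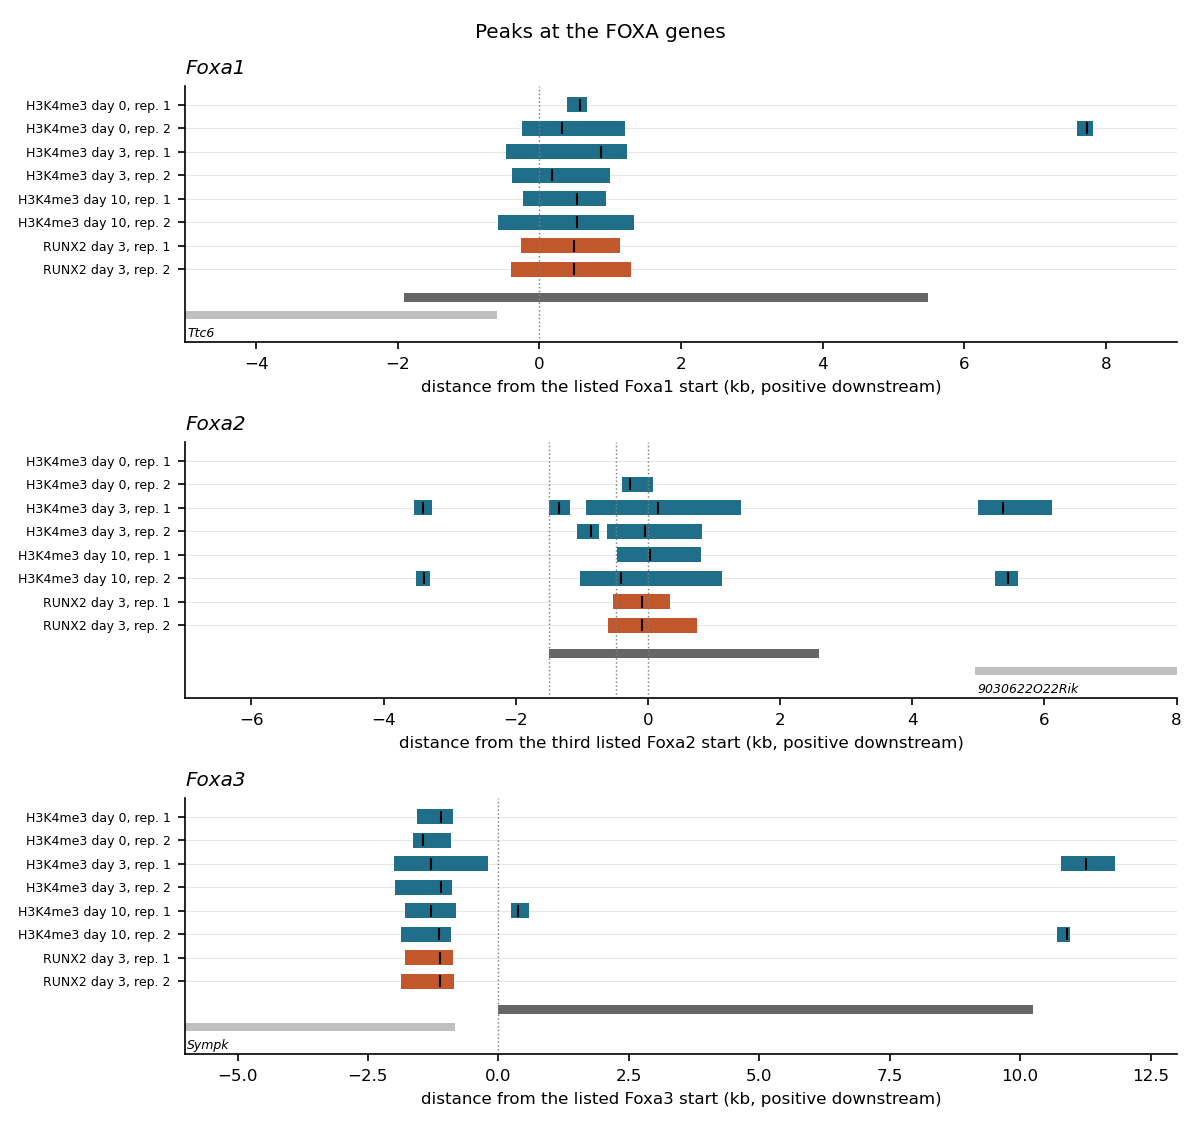
Peaks at the FOXA genes in the 6 H3K4me3 lists (blue) and the 2 RUNX2 lists of day 3 (orange), by distance in kb from a listed start. Bars are peaks, ticks their summits, dotted lines listed starts, dark grey the gene and light grey its neighbours. The main Foxa1 and Foxa2 peaks lie over a start of the gene, except in H3K4me3 replicate 1 of day 0. The main Foxa3 peaks lie beyond the Foxa3 start, at the start of Sympk.

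At Foxa1 a single H3K4me3 region, chr12:57544769-57546702, was present in all 6 lists and contained the listed start (57546111). The peak of replicate 1 of day 0, chr12:57545432-57545726, did not reach that start. The region ended just before the span of the neighbour Ttc6, which begins at 57546704. The RUNX2 summit of day 3 lay on base 57545627 in both libraries, 484 bp downstream of the listed start. Its fold enrichments over local background were 7.44 in replicate 1 and 11.7 in replicate 2. The fold enrichments are the authors' values and describe peaks within a list. A second, short peak beyond the 3′ end was in replicate 2 of day 0 only.

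At Foxa2 the main H3K4me3 region was chr2:148044062-148046535. It was in 5 of 6 lists, with 465 bp in replicate 2 of day 0, 2348 and 1765 bp on day 3, and 1270 and 2149 bp on day 10. The day 0 peak was weak, with a fold enrichment of 5.13, and ranked 16029 of 20863 in its list. The RUNX2 summits of day 3 were on bases 148045549 and 148045550, marked in the sequence above, 85 and 86 bp before the third start. They were also the weakest of the FOXA genes by rank, at 14211 of 19319 and 13228 of 16859 in their lists. The first listed start (148046969) had no H3K4me3 in any library but replicate 1 of day 3, which covered 37 of its 300 promoter bases. A further region, chr2:148039354-148040471, lay at the start of the lncRNA gene 9030622O22Rik in replicate 1 of day 3 and replicate 2 of day 10.

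At Foxa3 the region in all 6 lists was chr7:19023737-19025532, and it did not contain the listed Foxa3 start (19023539). Its RUNX2 summit, base 19024661 in both libraries, lay 1122 bp upstream of that start and 284 bp from the start of Sympk, a divergently transcribed gene for a scaffold protein of mRNA 3′-end processing. This was the strongest RUNX2 peak of the 6 genes, ranked 1257 of 19319 and 2240 of 16859 in its lists (fold enrichments 12.5 and 19.3). The 300 promoter bases of Foxa3 itself were reached by 53 bp in replicate 1 of day 3 and by no other list of either antibody. A separate peak inside the gene, chr7:19022949-19023292, was called in replicate 1 of day 10 only. When each peak was given only to the gene with the nearest listed start, Foxa3 had no RUNX2 peak, and RUNX2 was counted at 5 of 6 genes, a setting chosen after seeing the data. With the nearest gene end in its place, RUNX2 was counted at 4 of 6 (Foxa2, Mef2a, Mef2c and Mef2d). Both counts were the same with either RUNX2 library alone. The share of all genes was not counted for either setting.

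**Figure D3:**
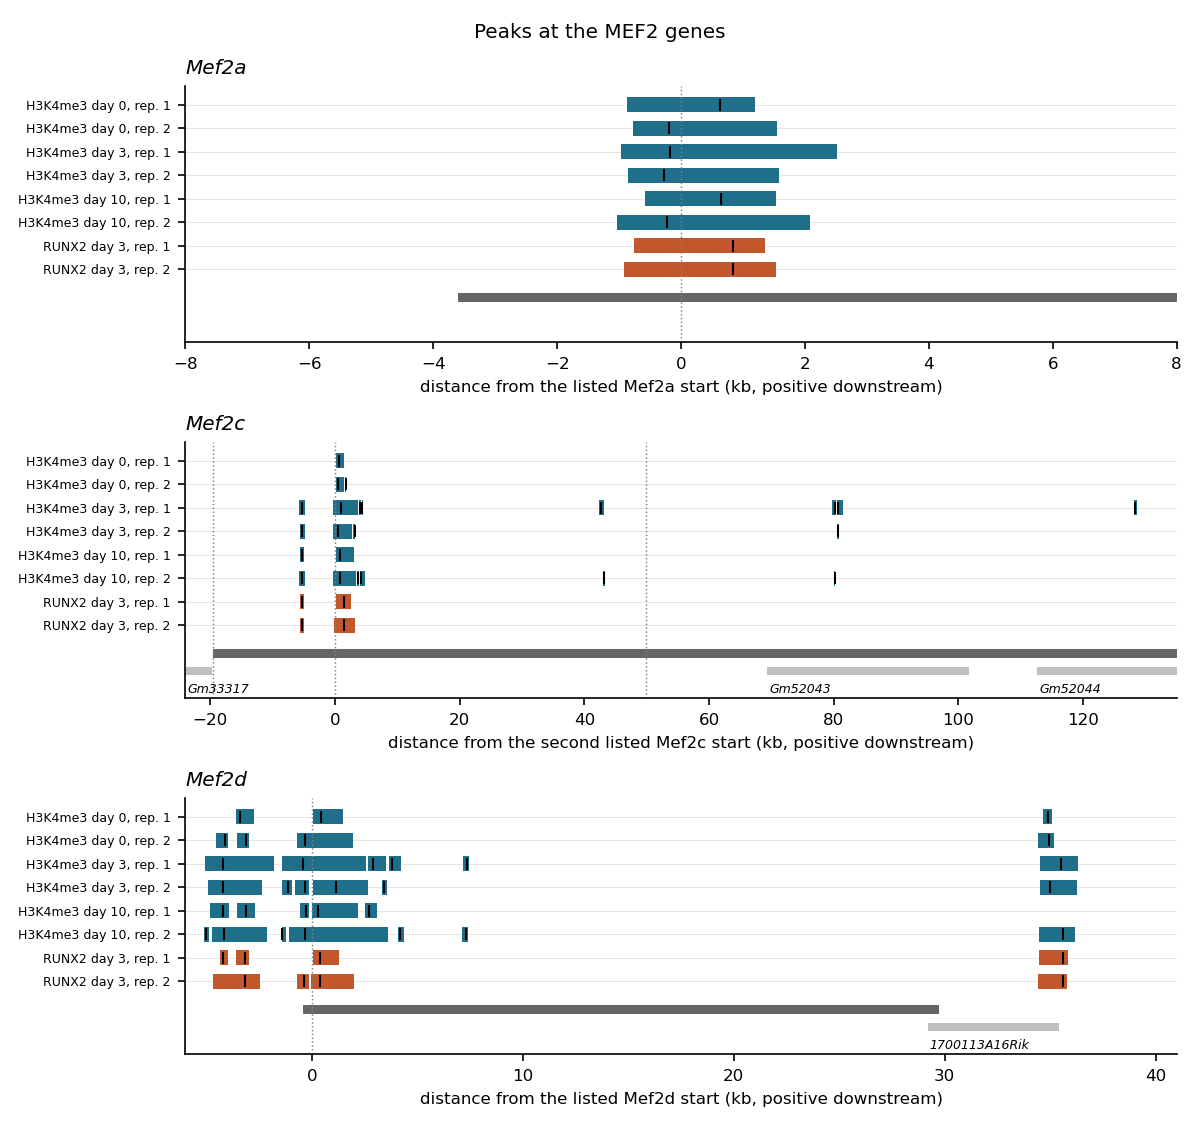
Peaks at the MEF2 genes, drawn as for the FOXA genes, by distance in kb from a listed start. At Mef2c a peak 5.3 kb upstream of the second start is present on days 3 and 10 and in RUNX2 and absent from both day 0 lists. No peak lies at the first or the third Mef2c start.

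At Mef2a the only region, chr7:67370339-67373890, held the listed start (67372858) in every H3K4me3 list. It was the strongest H3K4me3 peak of the 6 genes by rank on day 3, at 2069 of 28653 and 2142 of 26781. The RUNX2 summit, base 67372022 in both libraries, lay 836 bp downstream of the listed start, with fold enrichments of 4.86 and 13.1.

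Mef2c carried the most varied set, with 7 H3K4me3 regions. The main one, chr13:83523262-83527444, began at the second start (83523656) and ran downstream. It measured 1320 and 1444 bp on day 0, 4010 and 3350 bp on day 3, and 2845 and 3901 bp on day 10. On day 0 both lists left the 300 promoter bases of that start uncovered, their peaks beginning at 83523855 and 83523878. On day 3 both libraries covered all 300 bases, and on day 10 replicate 2 did and replicate 1 did not. RUNX2 had its summit on base 83525158 in both libraries, 1502 bp past the start. The first start (83504034) and the third (83573607) had no peak over their promoters in any of the 12 lists.

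One region that met the rule for a gain, chr13:83517812-83518833, lay inside the Mef2c span between the first and second starts. H3K4me3 was absent there from both day 0 lists, covered 1022 and 868 bp on day 3 and 693 and 952 bp on day 10. The 4 H3K4me3 summits lay between 83518291 and 83518346, and the RUNX2 summits of day 3 on 83518326 and 83518327, 5330 and 5329 bp upstream of the second start. RUNX2 had fold enrichments of 7.90 and 9.07 there. The region was called as gained on day 3 relative to day 0 also at a −log10 q of at least 5 and among equal numbers of top peaks. An intronic or intergenic class is not given, because the reference table holds no exons.

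Over the 6 windows there were 22 H3K4me3 regions, of which 7 were in all 6 lists (26.6% of all 42397 regions of the genome) and 4 in a single list (51.9%). The gained regions on day 3 relative to day 0 numbered 2 (background 7.35%), both at Mef2c. The other one, chr13:83604120-83605180, covered 1061 and 310 bp on day 3, and was the 1 region lost on day 10 relative to day 3 (1.44%). On day 10 relative to day 0, 1 region was gained (1.68%), the one upstream of the second Mef2c start. No region was lost on day 3 relative to day 0 (0.00943% of all regions), gained on day 10 relative to day 3 (0.0943%) or lost on day 10 relative to day 0 (0.0212%). Without replicate 2 of day 3, 12 regions counted as gained on day 3 relative to day 0, and 3 as lost on day 10 relative to day 3. Without replicate 1 of day 10, 9 counted as gained on day 10 relative to day 0. Leaving out replicate 2 of day 0 or replicate 2 of day 10 gave 2.

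Mef2d had 3 regions in all 6 lists. The one over its start (88142372), chr3:88140930-88145967, measured 1467 and 2666 bp on day 0, 4851 and 4011 bp on day 3, and 3201 and 4917 bp on day 10. An upstream one, chr3:88137273-88140576, measured 858 and 1108 bp on day 0, 3288 and 2584 bp on day 3, and 1771 and 2837 bp on day 10. In both regions each library of the later days exceeded both of day 0. RUNX2 summits lay 3155 bp upstream of the start and 401 and 400 bp downstream of it. A distant pair of peaks, chr3:88176810-88178714 for H3K4me3 and chr3:88176797-88178216 for RUNX2, lay at the start of the lncRNA gene 1700113A16Rik, 209 bp from the RUNX2 summit. The H3K4me3 region there measured 789 and 1329 bp on day 0, 1824 and 1772 bp on day 3, and 393 and 1669 bp on day 10. The 393 bp of replicate 1 of day 10 lay beyond the 5 kb window, which the region reached through peaks of other lists. Day 3 lay above both other days, and day 10 overlapped day 0.

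In all, RUNX2 and H3K4me3 overlapped at these genes, as they did at nearly all RUNX2 regions of day 3. There were 9 RUNX2 regions with a peak in both day 3 libraries, and 9 of 9 overlapped an H3K4me3 region of day 3 (exact Clopper-Pearson 95% interval 66.4 to 100%, which covers counting error only). Of all RUNX2 regions of day 3, 97.7% did. The interval takes the 9 regions as independent draws, although several lie at the same gene and all come from the same pair of libraries. With either RUNX2 library alone, 100% of its regions in the 6 windows overlapped H3K4me3. The summits of the 2 libraries were within 1 bp of each other in 9 of 9, against 74.8% of all RUNX2 regions. In H3K4me3 regions of day 3, 1.28% had summits that close, and the median distance was 108 bp. Of the 9 summits, 4 lay within 1 kb of a listed start of the member gene and 6 within 1 kb of a listed start of any gene. On the chromosomes with listed starts, 66.5% of all 15490 RUNX2 regions had a summit that close to any start.

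**Figure D4:**
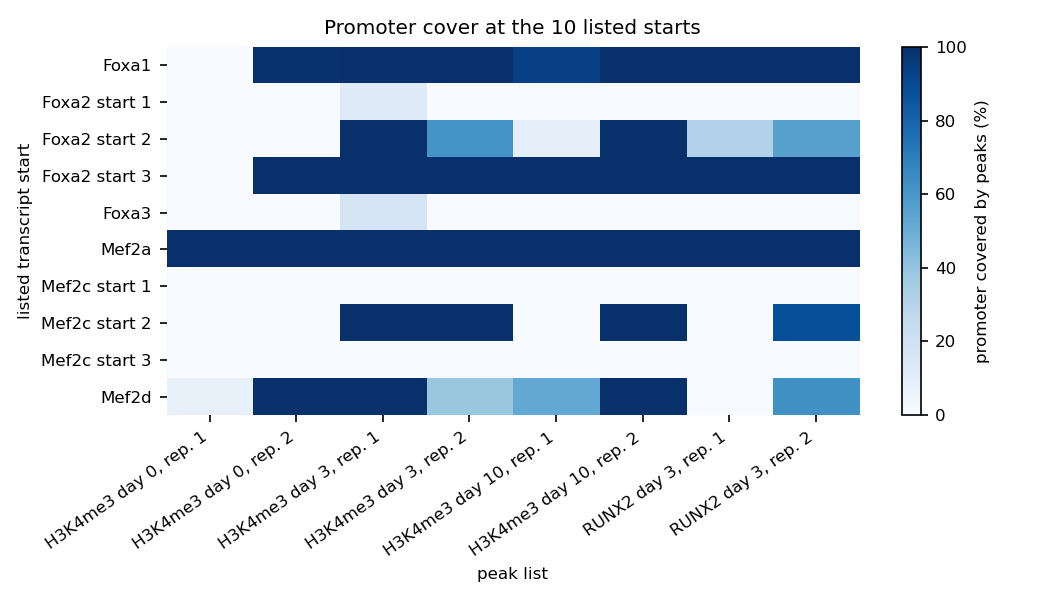
Share of the 300 promoter bases covered by peaks, in percent, at the 10 listed starts of the 6 genes (rows) in the 6 H3K4me3 lists and the 2 RUNX2 lists of day 3 (columns). Mef2a is covered throughout. The first and the third starts of Mef2c stay at 0, and the Foxa3 start is covered in part in 1 list.

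Read start by start, the promoter cover separated the genes. H3K4me3 reached the Mef2a and Mef2d starts in 6 lists, the Foxa1 start and the third Foxa2 start in 5, the second Foxa2 start in 4 and the second Mef2c start in 3. RUNX2 reached the starts of Foxa1 and Mef2a and the second and the third starts of Foxa2 in both libraries of day 3, beside 36.6% of all listed starts. At the Mef2d start and the second Mef2c start it did so in replicate 2 only, with 188 and 264 bp. Over all listed starts, H3K4me3 in both libraries covered 30.7% on day 0, 39.6% on day 3 and 36.7% on day 10.

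Regulators and partners of these factors were taken from lists chosen with earlier results known. Their counts stand beside 54.8, 64.3 and 59.4% of all genes for H3K4me3 on days 0, 3 and 10, and 61.1% for RUNX2 on day 3. Of 18 MEF2 regulators, H3K4me3 was called in both libraries at 16, 17 and 17 of them on days 0, 3 and 10. RUNX2 was called at 17 on day 3, also with either library alone. Hdac4, Hdac5 and Hdac7, which encode class IIa deacetylases that bind and repress MEF2, and Sik1, Sik2 and Sik3, which encode kinases that phosphorylate these deacetylases, had H3K4me3 on all 3 days. Hdac9, of the same class, had 0 and 1528 bp on day 0, 6364 and 3840 bp on day 3, and 1020 and 6329 bp on day 10. Prkd1, encoding a further kinase of these deacetylases, had no peak in any list. None of the 18 gained or lost an H3K4me3 peak. For day 3 relative to day 0, 3.23% of all genes gained one and 0.00914% lost one. For day 10 relative to day 3 these shares were 0.0457 and 0.576%, and relative to day 0 they were 1.11 and 0.00914%. RUNX2 was gained at 17 on day 3 relative to day 0 and lost at 17 on day 10 relative to day 3. Each of these 2 counts stands beside 61% of all genes. The other MADS-box genes Mef2b and Srf had H3K4me3 in both libraries on all 3 days.

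Of 14 upstream factors and partners of FOXA proteins, H3K4me3 was called in both libraries at 9, 13 and 11 of them on days 0, 3 and 10. RUNX2 was called at 10 on day 3, also with either library alone. H3K4me3 was gained on day 3 relative to day 0 at 2 genes, where 3.23% of all genes gained it. Ihh, the hedgehog ligand of prehypertrophic cartilage, had 360 and 1003 bp on day 3, 471 and 1378 bp on day 10 and none on day 0. Grhl2, an epithelial transcription factor, had 281 and 215 bp on day 3 and none on the other days. Of 18 genes of hypertrophy, 11, 14 and 15 were marked on days 0, 3 and 10, and 12 had RUNX2 on day 3 (13 and 12 with replicate 1 and replicate 2 alone). H3K4me3 at Spp1, encoding osteopontin, was gained on day 3 relative to day 0 and that at Ibsp, encoding bone sialoprotein, on day 10 relative to day 3. Of all genes, 3.23 and 0.0457% gained a peak in these comparisons. Col10a1, a target of both FOXA and MEF2 factors, had 638 bp in replicate 2 of day 10 and nothing elsewhere. Mmp13, the collagenase of late hypertrophy, had no peak. Of the 41 other forkhead genes, 24, 35 and 27 were marked on days 0, 3 and 10. Foxn4 alone gained H3K4me3 on day 3 relative to day 0, beside 3.23% of all genes. Foxe3 alone lost it on day 10 relative to day 3, beside 0.576%.

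The genes whose cover was most like that of each member were found by the Euclidean distance of log2(covered bp + 1) over the 12 lists, among genes over 1 Mb away. For Mef2c these were Xylt1 (distance 0.60), Phospho1 (0.61) and Zfp217 (0.84), where the median gene stood at 5.15. For Foxa2 they were Prkch (0.56), Veph1 (0.74) and Prr5 (1.00), with a median of 11.6. For Mef2a the closest was Lats2 (0.19), with a median of 3.73. Foxa1 was followed by Xkr6 (0.44), Foxa3 by Btrc (0.68) and Mef2d by Bhlhe40 (0.55). Among the 6 genes themselves, Mef2c and Mef2d were closest (2.00) and Foxa2 and Mef2d farthest apart (12.4). Most of the latter distance came from H3K4me3 replicate 1 of day 0, with 0 bp at Foxa2 and 2368 bp at Mef2d.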

How the data were processed

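ChIP-seq peak lists of H3K4me3 and RUNX2 were used, 12 of 14 samples; the 2 inputs had no list here. The tools named in the submitters' processing notes are MACS2, HISAT2 2.2.0, Trim Galore and FastQC, and reads were 75 bp long. For settings, removal of duplicates and use of the inputs, the sources used here give nothing. Peaks were called per library, since each deposited list belongs to 1 library. In the deposited lists the authors give a score, the fold enrichment as a ratio to local background, and −log10 p-value and q-value for each peak, used only within a list.

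The notes name GRCm39, but 37.3 to 69.0% of H3K4me3 summits lay within 1 kb of a RefSeq GRCm38.p6 start, against 3.54 to 4.15% after a shift of 20 kb, so GRCm38 was used. That table gives spans and listed starts without exons. Overlapping peaks were merged and peaks on assembled chromosomes kept. Covered length was compared by two-sided exact permutation (Python 3.11.15, scipy 1.17.1). It sets the difference between days against the differences after relabelling the libraries, whose spread may be technical. The working of the gain and loss rule was checked on simulated peaks set at the same genes in both libraries of a day. Peaks missing from a single library were not simulated. The members, the gene lists, the rule for named genes (all 6 members, genes of the lists that changed calls, and the 3 most alike genes) and the tests were chosen with earlier results of these data known. Alternatives covered windows, thresholds, assignment and left-out libraries. Not every gene named by that rule is reported here.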

Additional observations from a re-analysis of the deposited data

How the results depend on the processing

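With 1 kb either side of the gene ends, H3K4me3 was called at 2, 3 and 2 of 6 genes on days 0, 3 and 10, RUNX2 at 3 on day 3 (3 gained, 3 lost), Foxa2 became the 1 gene gained on day 3 relative to day 0, and 0 regions were gained or lost. With 1 kb either side of the listed starts 0 regions were gained or lost as well. Giving a peak to the nearest gene end left 3 genes on day 0 and made Foxa3 the 1 gain on day 10 relative to day 0. That gain rested on a different peak in each library, chr7:19022949-19023292 in replicate 1 and chr7:19012592-19012823 in replicate 2. Equal numbers of top peaks gave Foxa2 as 1 gain on day 3 and 1 on day 10 relative to day 0, with 2 regions gained on day 10 relative to day 0 and 0 lost on day 10 relative to day 3. At a −log10 q of at least 5, 1 region was gained on day 3 and 0 lost on day 10 relative to day 3. Leaving out each library in turn gave 0 to 1 genes gained on day 3 or day 10 relative to day 0, and regions gained numbering 2 to 12 for day 3 relative to day 0, 1 to 9 for day 10 relative to day 0 and 0 to 1 for day 10 relative to day 3, with 1 to 3 lost. Without the 2 shortest H3K4me3 lists, a choice made after seeing the data, 9 regions were gained on day 10 relative to day 0. Shares of all genes and regions were not counted under these other windows, thresholds, assignments and equal numbers of peaks. The cause of these shifts was not tested.

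Differences in H3K4me3 cover turned sign as follows. With single libraries left out, day 3 minus day 0 spanned -139.5 to 1249.5 bp at Foxa1. Day 10 minus day 0 spanned -131 to 1258 bp at Foxa1 and -87.5 to 918.5 bp at Mef2a. Day 10 minus day 3 spanned -372.5 to 389.5 bp at Foxa1, -2054.5 to 229.5 at Foxa2, -1565 to 180 at Foxa3, -885 to 178 at Mef2a, -3640.5 to 228.5 at Mef2c and -3020 to 593 at Mef2d. Without the 2 shortest lists it was 149.5 bp at Mef2a and 593 bp at Mef2d, and day 3 minus day 0 was -139.5 bp at Foxa1. Listed starts gave -45.5 bp for Foxa1 (day 10 minus day 3) and -31 bp for Mef2a (day 10 minus day 0), and the bare span gave 172 bp for Foxa3 (day 10 minus day 3). Pairing the libraries by replicate number as a block left the differences as they were and allowed no p below 0.5, so it changed no call; Mef2c kept 5080.5 bp for day 3 minus day 0. The labels do not say what a number shares. The share of RUNX2 regions of day 3 that overlapped H3K4me3 was 100% in every alternative run. Read depth is unknown, and its part in which weak peaks were called was not tested.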
